A study of Mus musculus with 14 samples.

Results

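The genes for the proteins of the cytosolic ribosome were described in mouse blood leukocytes. A gene was taken where the symbol of its array probe starts with Rpl, Rps or Rplp and a digit, or is Rpsa; S6 kinase genes, pseudogenes and paralogs whose names end in l or l1 were left out. This gave 78 of the 20022 genes with a symbol on the array. Of these, 43 code for proteins of the large subunit, 3 for the P-stalk of the large subunit and 30 for proteins of the small subunit. The other 2 match by letters only: Rps19bp1 codes for a protein that binds RPS19, and Rps23rg1 is a retrogene made from Rps23. Each gene was represented by its brightest probe, and all 78 probes were well above background on all 14 arrays.

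RNA of 14 mice, as numbered in the labels, was hybridised on 14 one-colour Agilent arrays, 1 mouse per array. The labels do not say how SS mouse 01b relates to SS mouse 1, and it was counted as a separate mouse. The 8 SS mice met a hostile social environment in the third postnatal week, and the 6 SI mice were socially isolated in that week. Both groups were given cocaine at 5 mg/kg, a dose below the threshold for place preference, then went through extinction and withdrawal, and were bled 24 hours later. No mouse without cocaine or without early stress was included, so SI is a comparison group and not an unstressed control. Slide 1 held the mice labelled male (4 SS and 4 SI) and slide 2 those labelled female (4 SS and 2 SI). Slide, sex label and scan run cannot be told apart, and neither can stress group and the column of the slide, because the SI arrays lie in the left columns of both slides. The labels give no strain and no age at sampling.

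The cells are labelled PBMC, but the labels describe lysis of red cells and no gradient or sort. Markers of several blood lineages were well above background on all 14 arrays: 12 of 16 tested T cell genes, all 13 B cell genes, all 15 neutrophil genes, 18 of 19 platelet genes and 9 of 12 erythroid genes. The Y-linked transcript Eif2s3y went against the sex labels: it was well above background on 0 of 8 arrays of slide 1 and on 6 of 6 of slide 2, so sex is given below only as a label. On slide 1 the library labelled SI mouse 4 stood apart. Across probes well above background on all arrays, the SD of its log2 difference to the other SI arrays of the slide was 1.07 to 1.41, against 0.49 to 0.56 between those arrays. SS mouse 3 also lay apart from the other SS arrays of slide 1 (0.81 to 0.89, against 0.34 to 0.45 between them). The closest pair of arrays, SS mice 20 and 21 of slide 2, differed with an SD of 0.20. Counts and medians of the genes on slide 1, and the differences of the genes described there in full, are therefore given with and without mice 4 and 3.

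Ribosomal proteins are made in near equal amounts for assembly with ribosomal RNA, and their mRNAs are among the most abundant of any cell. Many of these mRNAs begin with a cytosine followed by a run of pyrimidines, the terminal oligopyrimidine (TOP) tract, through which the kinase mTORC1 and the RNA-binding protein LARP1 control their translation and stability. In blood, lymphocytes hold much ribosomal protein mRNA, and reticulocytes keep a selected set of mRNAs while they mature. An array measures mRNA and not its translation. In a mixture of cells, fewer cells of a type and less RNA per cell cannot be told apart.

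The sequence around the listed start of transcription was looked up for the genes. RefSeq (GRCm38.p6) gave a start for 58 of the 78 genes, with 68 entries. The windows below hold 15 bases before the listed start and 15 from the start onward, 5′ to 3′ on the strand of the gene. Capitals mark a C at the listed start with the unbroken run of C or T that follows it. The first 5 genes have such a tract, and the last 3 are named in the results and have none at the listed start.
Rpl28: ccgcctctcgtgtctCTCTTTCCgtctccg
Rplp2: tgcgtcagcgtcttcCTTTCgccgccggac
Rps6: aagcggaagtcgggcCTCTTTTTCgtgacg
Rps27: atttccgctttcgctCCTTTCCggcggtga
Rpl15: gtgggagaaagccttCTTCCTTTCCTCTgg
Rplp0: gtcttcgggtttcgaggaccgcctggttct
Rpl37a: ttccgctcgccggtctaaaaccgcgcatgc
Rps15: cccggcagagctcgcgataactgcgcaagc

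These windows lie at chr7:4792950-4792979 on the plus strand (Rpl28), chr7:141447636-141447665 plus (Rplp2), chr4:86857353-86857382 minus (Rps6), chr3:90213634-90213663 minus (Rps27) and chr14:18270972-18271001 minus (Rpl15). Those without a tract lie at chr5:115559452-115559481 plus (Rplp0), chr1:72711245-72711274 plus (Rpl37a) and chr10:80292416-80292445 plus (Rps15). A C at the start with at least 4 further C or T was found on the gene's strand at 13 of the 68 entries of the ribosomal protein genes (19.1%) and at 823 of all 32851 entries (2.51%). The longest tract was the 13 bases of Rpl15. The letters are a description of the listed starts: a start listed a few bases off would hide a tract, and no statement on regulation follows from them.

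The levels of the 78 genes were first set side by side over the arrays. Values are log2 of the processed signal relative to the 75th percentile of the probes well above background on all arrays, and each gene was centred on its own mean over the 14 arrays. The mean over the 78 genes on slide 1 was 0.27 for SI mouse 6, 0.13 for SI mouse 7, -0.20 for SI mouse 5 and -0.39 for SI mouse 4. In the SS mice of slide 1 it was 0.08 for mouse 3, -0.52 for mouse 1, -0.52 for mouse 2 and -0.54 for mouse 01b. So SS mouse 3 stood with the SI arrays 6 and 7, and SI mouse 4 stood near the other SS arrays. On slide 2 the SI mice had 0.27 and 0.39, and the SS mice 0.22, 0.24, 0.27 and 0.29, a range that overlaps at SI mouse 27.

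**Figure D1:**
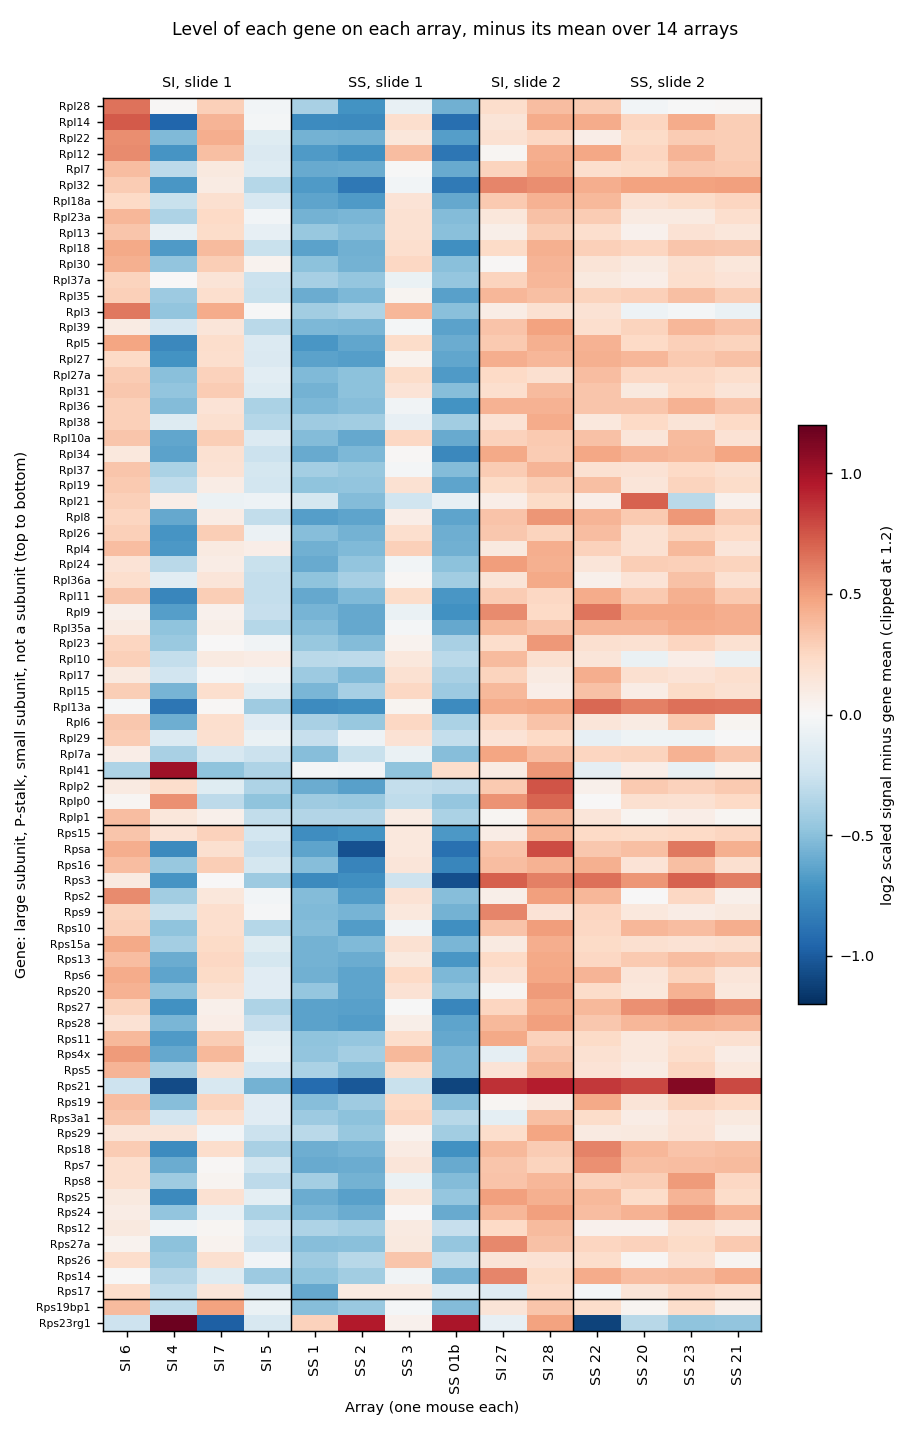
Level of each of the 78 genes (rows, ordered by role and then by the slide 1 difference) on each array (columns, by group), as log2 scaled signal minus the gene's mean over 14 arrays. On slide 1, SS mice 1, 2 and 01b and SI mouse 4 are blue in most rows, SS mouse 3 and SI mice 6 and 7 are pale to red, and slide 2 is nearly even.

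The genes moved together from array to array. SS mouse 3 was the highest of the 4 SS arrays of slide 1 for 75 of 78 genes, and SI mouse 6 the highest of the SI arrays for 66. SI mouse 4 was the lowest SI array for 62 genes. For 71 genes, SS mice 1, 2 and 01b all lay below SI mice 5, 6 and 7, arrays picked with these levels known. None of these orders was counted over all tested probes, so the counts describe the arrays and are not read as a trait of these genes. The within-group SD had a median of 0.28 over the 78 genes and 0.48 over all 24013 probes tested. These sets differ in brightness, with a median level of 4.49 and -3.38, so the spreads were not compared at like levels. Together the 78 probes took between 3.08% (SS mouse 2) and 7.52% (SI mouse 6) of the summed signal of an array.

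Several other measures, but not all, had mostly the same arrays high and low on slide 1. The mean centred level of 16 T cell markers (of 17 listed, Cd8a not tested) ranged from -0.97 (mouse 4) to 1.27 (mouse 6) in SI and from -1.26 to 0.55 (mouse 3) in SS. The 42 tested genes of ribosome biogenesis ranged from -0.56 (mouse 4) to 0.64 (mouse 6) in SI and from -0.46 to 0.30 (mouse 3) in SS. The brightness of an array (its median log2 ratio over probes to the mean of all arrays) ranged from -1.06 (mouse 4) to 1.06 (mouse 7) in SI and from -0.38 to 0.56 (mouse 3) in SS. The 19 tested platelet markers (of 20, F2rl3 not tested) went the other way, from -1.77 (mouse 6) to 0.27 (mouse 4) in SI and from 0.32 (mouse 3) to 1.18 in SS. NK cell markers had another order in SI, from -1.45 (mouse 5) to 0.63 (mouse 7). Monocyte markers were highest in mouse 5 among the SI arrays (0.46) and lowest in mouse 3 among the SS arrays (-0.10). On slide 2, T cell markers ranged from -0.11 to 1.24 in SI and from -0.01 to 0.57 in SS, and platelet markers from -1.43 to -1.10 in SI and from 0.33 to 0.72 in SS. The part of cell composition and array brightness in the ribosomal protein levels was not tested beyond the fit with brightness as a covariate given below.

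**Figure D2:**
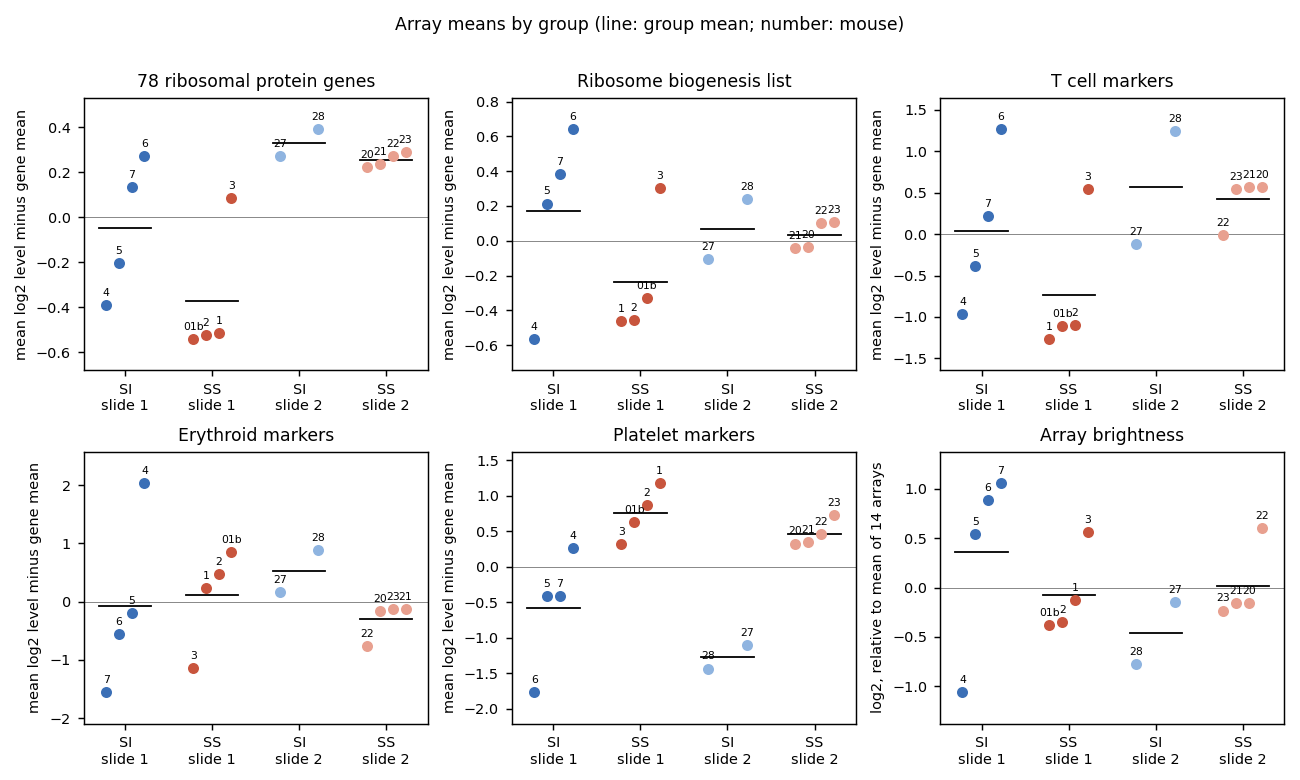
Mean centred log2 level of the ribosomal protein genes and of 4 gene lists, and array brightness, for each array by group (points, with the mouse number; line, group mean). SI mouse 4 and SS mice 1, 2 and 01b are low and SI mouse 6 and SS mouse 3 high for ribosomal protein genes, ribosome biogenesis and T cell markers, and SI mouse 4 is the highest array for erythroid markers at 2.04.

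The comparison of SS with SI asks whether the 2 early-life conditions left different transcript levels in blood during cocaine abstinence. In all mice, with slide as a term, no ribosomal protein gene passed limma's test at an adjusted p of 0.05 (0 of 78), while 7.97% of all tested probes did, 7.40% higher and 0.571% lower in SS. At an unadjusted p under 0.05 there were 5 genes, all lower in SS (6.41% of the 78, against 6.54% of all probes lower and 20.3% in either direction). The log2 difference (SS minus SI) was negative for 77 of 78 genes with a median of -0.23, and negative for 12813 of 24013 probes with a median of -0.04. Over the probes well above background on every array, as all 78 are, the median was -0.11. The estimates for single genes thus lay on one side by small amounts, with a median SE of 0.17, and genes that move together over arrays are not independent.

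By role, the median log2 difference in all mice was -0.23 over the 43 large subunit genes (all negative), -0.21 over the 30 small subunit genes (all negative) and -0.36 over the 3 P-stalk genes. The second probes of the genes gave like values: 81 other tested probes had a median of -0.21, with 80 negative and 0 called. No gene was called in this comparison under another scaling, background correction or filter, nor without any single array. With array brightness as a covariate, an alternative added after the data were seen, 3 genes passed: Rpl28 (adjusted p = 0.0217 by limma), Rplp0 (0.0342) and Rps9 (0.0499), where 18.4% of all probes passed.

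Within slide 1, again 0 of 78 genes and 0% of all tested probes passed limma's adjusted threshold. Unadjusted p was under 0.05 for 5 genes, all lower in SS (Rpl28, Rpl37a, Rpl7, Rps15 and Rps19bp1, 6.41%, against 4.88% of all probes lower and 23.7% in either direction). The difference was negative for all 76 subunit genes with a median of -0.33, where all probes had a median of 0.09. Over the probes well above background on every array the median on slide 1 was -0.09. The groups did not overlap for 2 of 78 genes, Rpl28 and Rpl21, both with SS below SI (2.56%, against 1.17% of all probes in that direction), and no gene had SS above SI (8.40% of all probes). The probe of Rpl21 was the dimmest of the 78, with a mean level of -3.71. Its groups were parted by a narrow margin, -3.78 in SI mouse 7 against -3.80 in SS mouse 01b. Without SI mouse 4 the median of the 78 genes was -0.48 and 12 passed, while 39.2% of all probes passed. Of the 12 genes, 11 were lower in SS, and 17.1% of all probes passed lower. Unadjusted p was then under 0.05 for 48 genes lower in SS (23.9% of all probes lower), and 2 genes had all SS arrays below SI (16.0% of all probes). Without SS mouse 3 the median was -0.50 and 0 passed (0.00416% of all probes). Unadjusted p was then under 0.05 for 42 genes, all lower (13.3% of all probes lower), and 35 genes had all SS arrays below SI (5.73% of all probes). Mouse 3 was singled out with its level of these genes known, so the values without it are a description. Without SI mouse 6 the median was -0.21 and 0 passed. With array brightness as a covariate it was -0.19.

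Within slide 2, 0 of 78 genes passed, against 4.00% of all probes, and 0 had an unadjusted p under 0.05 (15.8% of all probes; limma). The median was -0.06 over the 78 genes, with 60 negative, and -0.11 over all probes. Without SI mouse 28 it was -0.0035 with 40 negative, without SI mouse 27 it was -0.13 with 63 negative, and with array brightness as a covariate it was -0.22 with 74 negative. The groups did not overlap for 16 genes with SS below SI (20.5%, against 18.2% of all probes) and for 5 genes with SS above SI (6.41%, against 16.5%). The direction on this slide rests on the scaling: with each array scaled to the 75th percentile of all non-control probes, the median was 0.10 and only 14 genes were negative. That scaling moved the median of all probes on slide 2 from -0.11 to 0.05 and on slide 1 from 0.09 to -0.09. Both scalings move all probes of an array alike, so the distance of the genes from the median of all probes (-0.42 on slide 1, 0.05 on slide 2) is the same in both by construction. On slide 2 that distance was -0.11 with quantile normalization, 0.23 with normexp background correction and -0.12 with brightness as a covariate. On slide 1 it was -0.44, -0.55 and -0.21 with these settings, and -0.24 against the probes well above background on every array.

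**Figure D3:**
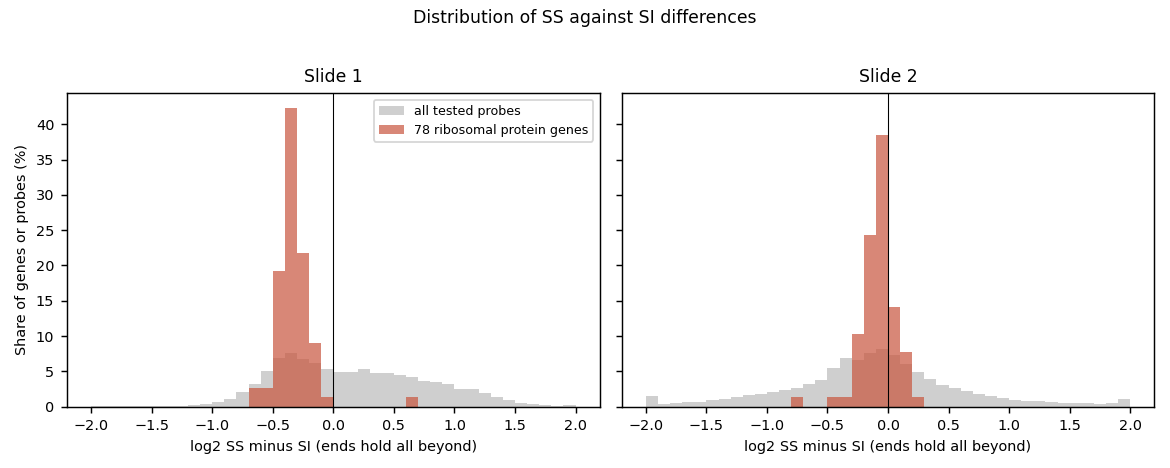
Share of genes or probes (y axis, %) by log2 SS minus SI difference (x axis, bins of 0.1) for the 78 ribosomal protein genes (red) and all 24013 tested probes (grey), on slide 1 and slide 2. The genes form a narrow peak below 0 on slide 1 (median -0.33) and around 0 on slide 2 (median -0.06).

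The difference between the slides was tested as an interaction, the change on slide 2 minus that on slide 1. None of the 78 genes passed (0.0458% of all probes did), and 1 had an unadjusted p under 0.05 (12.6% of all probes; limma). The estimate was positive for 72 genes with a median of 0.30, against -0.11 over all probes. It was 0.64 with the percentile of all non-control probes, and 0.01 with 35 genes negative when array brightness was a covariate. When single arrays were left out it ranged from 0.18 to 0.48. The unadjusted gene was Rps23rg1, which is not a subunit gene and has an estimate of the other sign (-1.42 ± 0.63 SE, adjusted p = 0.380).

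**Figure D4:**
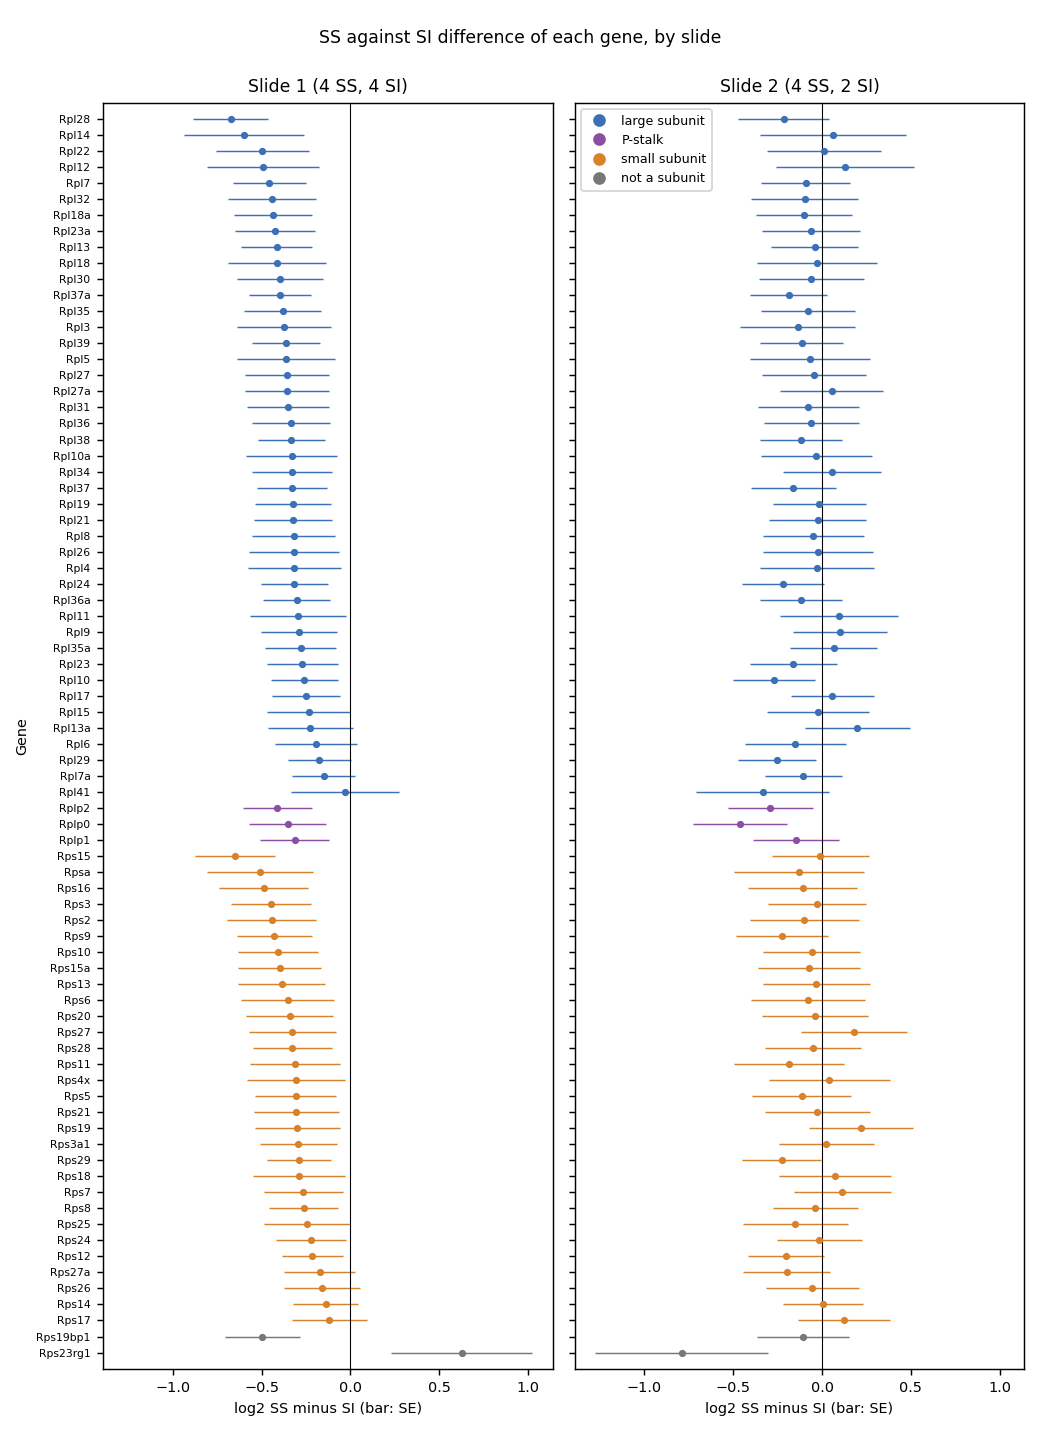
Log2 SS minus SI difference (x axis) with its standard error for each of the 78 genes (rows, coloured by role) on slide 1 and slide 2. On slide 1 every subunit gene lies below 0, and on slide 2 most bars cross 0.

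Among the large subunit genes, Rpl28 had the lowest p in all mice and on slide 1. Its log2 level on slide 1 was 3.88, 3.51, 3.24 and 3.19 in SI mice 6, 7, 4 and 5, and 2.83, 2.50, 3.13 and 2.65 in SS mice 1, 2, 3 and 01b. All SS arrays of slide 1 lay below all SI arrays there, by a narrow margin between SS mouse 3 and SI mouse 5. On slide 2 the levels were 3.43 and 3.59 in SI and 3.53, 3.19, 3.22 and 3.24 in SS, where mouse 22 lay among the SI arrays. The difference was -0.49 ± 0.17 (SE) in all mice (limma adjusted p = 0.101), -0.67 ± 0.21 on slide 1 (0.0934) and -0.22 ± 0.26 on slide 2 (0.760). Without SI mouse 4 the slide 1 difference was -0.75 and passed (adjusted p = 0.0205 by limma), and without SS mouse 3 it was -0.79 (0.0628).

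Rpl37a, a zinc-binding protein of the large subunit, had levels of 6.57, 6.46, 6.31 and 6.05 in SI mice 6, 7, 4 and 5 and 5.90, 5.84, 6.22 and 5.84 in SS mice 1, 2, 3 and 01b of slide 1. Slide 2 gave 6.57 and 6.70 in SI and 6.42, 6.39, 6.50 and 6.46 in SS. Only SS mouse 3 overlapped SI on slide 1, and on slide 2 no array overlapped. The difference in all mice was -0.31 ± 0.13 (limma adjusted p = 0.203). On slide 1 it was -0.40 ± 0.18 (0.195), with -0.41 without SI mouse 4 (0.0739) and -0.49 without SS mouse 3 (0.102). Rpl10, which joins the large subunit late in its assembly, stood at 5.81 and 6.00 in SI and 5.54 to 5.76 in SS on slide 2 (-0.27 ± 0.23, adjusted p = 0.648), and its difference in all mice was -0.26 ± 0.14 (0.314).

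Rpl41, the smallest ribosomal protein, departed from the others. Its level was 7.45 in SI mouse 4 and 6.06, 5.95 and 6.06 in SI mice 6, 7 and 5, and 6.41, 6.40, 5.95 and 6.64 in SS mice 1, 2, 3 and 01b. SI mouse 4, low for most of the genes, was the highest of all 14 arrays for Rpl41. The difference in all mice was -0.15 ± 0.23 (limma adjusted p = 0.735), and without SI mouse 4 it was 0.0364.

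SI mouse 4 was below the mean of the other 7 arrays of slide 1 for 63 of the 78 genes and above it for 15. It exceeded all other arrays of the slide for 5 genes: Rpl41 by 1.24 over the mean of the other arrays, Rps23rg1 by 1.06, Rplp0 by 0.89, Rplp2 by 0.54 and Rps29 by 0.35. Rpl14 lay farthest below, at 4.34 against a mean of 5.13. These genes were singled out after their values were seen. On the same array the mean centred level of the 12 tested erythroid markers (of 16, Hbb-bs, Epb42, Ahsp and Klf1 not tested) was 2.04, against -1.56 to -0.20 in the other SI arrays of slide 1 and -1.14 to 0.85 in SS. On slide 2 it ranged from 0.16 to 0.89 in SI and from -0.76 to -0.13 in SS. The part of red-cell RNA in the levels of these genes was not tested.

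The P-stalk, formed by Rplp0 at its base and the acidic proteins Rplp1 and Rplp2, recruits elongation factors to the ribosome. Rplp0 had levels of 6.36, 6.02, 6.88 and 5.85 in SI mice 6, 7, 4 and 5 and 5.91, 5.89, 6.03 and 5.87 in SS mice 1, 2, 3 and 01b. The slide 2 levels were 6.87 and 7.02 in SI and 6.33, 6.52, 6.52 and 6.57 in SS. The groups overlapped on slide 1, where SI mouse 5 lay below all SS arrays, and were apart on slide 2. The difference was -0.40 ± 0.16 in all mice (limma adjusted p = 0.178), -0.35 ± 0.22 on slide 1 (0.312) and -0.46 ± 0.26 on slide 2 (0.443), the lowest unadjusted p of the 78 genes on that slide. Without SI mouse 4 the slide 1 difference was -0.15 (limma adjusted p = 0.438), and without SS mouse 3 it was -0.39 (0.248).

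Rplp2 had 6.13, 5.88, 6.24 and 5.65 in SI mice 6, 7, 4 and 5 and 5.43, 5.37, 5.74 and 5.70 in SS mice 1, 2, 3 and 01b. On slide 2 it had 6.34 and 6.77 in SI and 6.08, 6.33, 6.30 and 6.34 in SS. SI mouse 28 and SS mouse 22 lay at the ends on slide 2, and the remaining arrays were close together. The difference in all mice was -0.36 ± 0.15 (limma adjusted p = 0.171). On slide 1 it was -0.41 ± 0.19, with -0.33 without SI mouse 4 and -0.47 without SS mouse 3. On slide 2 it was -0.29 ± 0.24 and ranged from -0.51 to -0.07 when single arrays were left out. Rplp1 had a difference of -0.25 ± 0.15 in all mice (0.375), with overlap on both slides. On slide 1, Rplp0 and Rplp2 were highest in SI mouse 4 and Rplp1 in SI mouse 6. On slide 2 all 3 P-stalk genes were highest in SI mouse 28. Mice 4 and 28 had the highest erythroid markers of their slides. Mouse 28 was also the highest slide 2 array for the mean centred level of large subunit (0.36) and small subunit genes (0.41). The same array was highest there for T cell (1.24), neutrophil (2.04) and NK cell markers (1.6). The part of red-cell RNA in the P-stalk levels was not tested.

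Among the small subunit genes, Rps15 had the largest difference on slide 1. Its levels were 4.79, 4.74, 4.63 and 4.24 in SI mice 6, 7, 4 and 5 and 3.71, 3.74, 4.59 and 3.77 in SS mice 1, 2, 3 and 01b. Slide 2 levels were 4.55 and 4.88 in SI and between 4.68 and 4.72 in SS. SS mouse 3 stood far above the other SS arrays of its slide and inside the SI range. The difference was -0.65 ± 0.22 on slide 1 (limma adjusted p = 0.115), -0.01 ± 0.27 on slide 2 (0.992), and 0.64 ± 0.35 for the slide 2 change minus the slide 1 change (0.465). Without SI mouse 4 the slide 1 difference was -0.64 (limma adjusted p = 0.0481), and without SS mouse 3 it was -0.86 (0.0617).

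Rps9, singled out here because its unadjusted p in all mice was 0.0471, had a difference of -0.35 ± 0.16 (limma adjusted p = 0.238). Rps19, a protein needed for maturation of small subunit RNA and mutated in Diamond-Blackfan anemia, was -0.30 ± 0.24 on slide 1 (-0.47 without SI mouse 4 and -0.48 without SS mouse 3) and 0.22 ± 0.29 on slide 2. On slide 2 its SI levels of 3.28 and 3.35 lay below the SS levels of 3.41 to 3.71. The test of that difference between slides gave 0.52 ± 0.38 (adjusted p = 0.576).

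Rps6, the substrate of the S6 kinases downstream of mTORC1, had levels of 4.74, 4.53, 3.67 and 4.16 in SI mice 6, 7, 4 and 5 and 3.72, 3.66, 4.54 and 3.76 in SS mice 1, 2, 3 and 01b. Levels on slide 2 were 4.47 and 4.76 in SI and 4.44 to 4.70 in SS. The groups overlapped fully on slide 1 through SI mouse 4 and SS mouse 3, and the difference in all mice was -0.24 ± 0.20 (limma adjusted p = 0.512). On slide 1 it was -0.35 ± 0.26, and -0.56 when either of these arrays was left out (limma adjusted p = 0.0731 without SI mouse 4 and 0.139 without SS mouse 3). Rpsa, also known as a laminin receptor, gave -0.36 ± 0.23 (0.407), with SI levels on slide 1 of 5.25 to 6.45 and SS levels of 4.97 to 6.14. Rps27a, made as a fusion with ubiquitin, gave -0.18 ± 0.15 (0.510). Rps14 and Rps27 gave -0.08 ± 0.14 (0.762) and -0.12 ± 0.19 (0.742), and both estimates turned positive when slide was not a term.

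**Figure D5:**
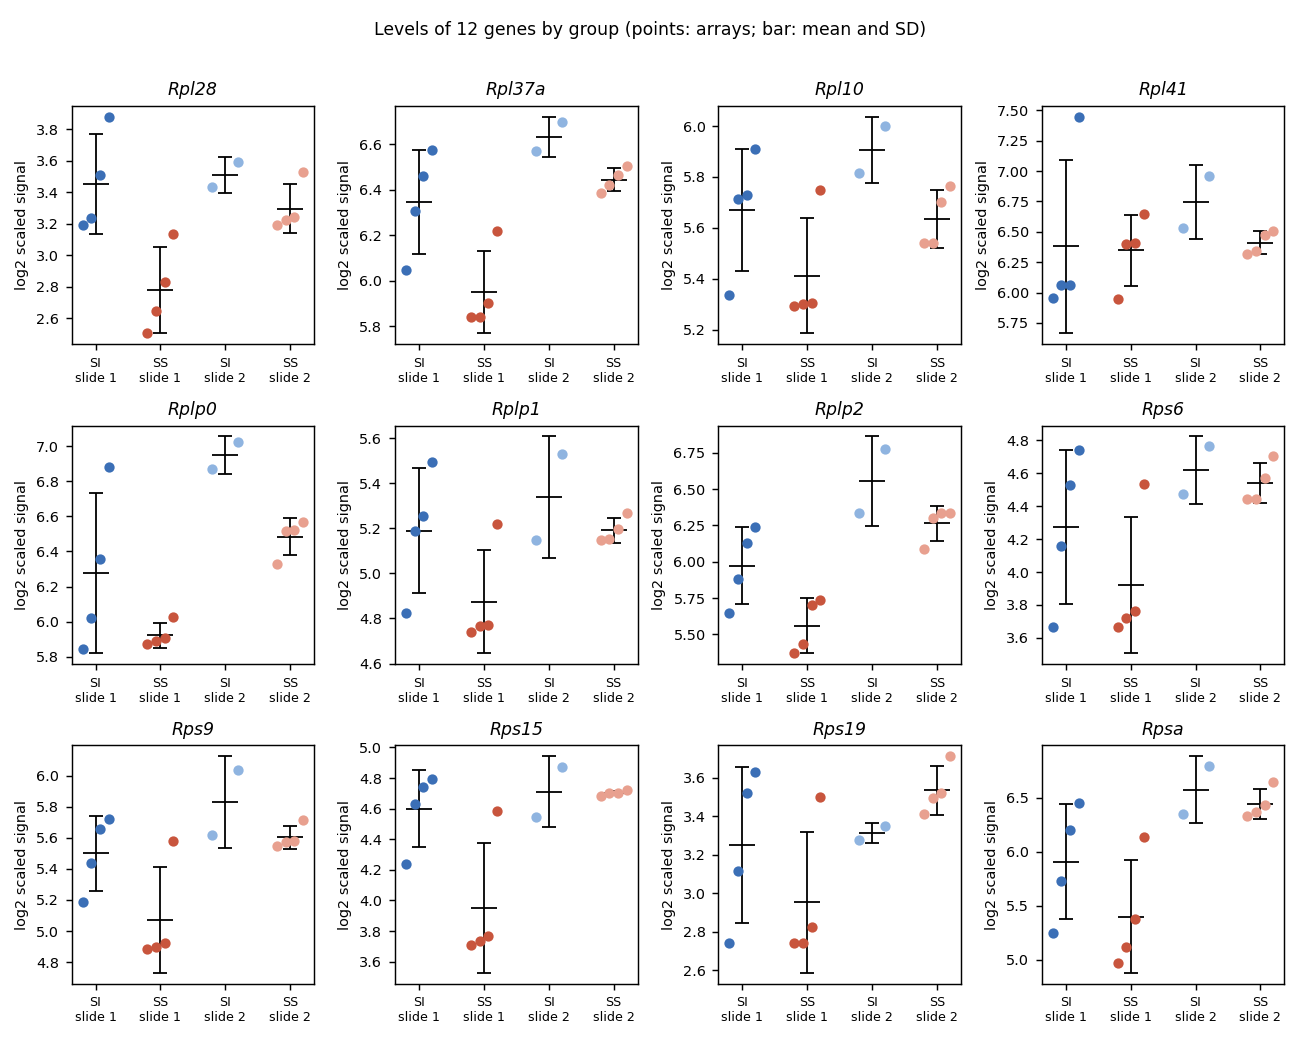
Log2 scaled signal (y axis) of 12 genes by group (points, arrays; bar, mean and SD). In most panels 1 SS array of slide 1, mouse 3, lies among the SI arrays, and in Rpl41 and Rplp0 the top SI array of slide 1 is mouse 4.

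Of the genes outside the subunits, Rps23rg1 departed from them and Rps19bp1 did not. Rps23rg1 had levels of -3.54, -4.27, -2.11 and -3.48 in SI mice 6, 7, 4 and 5, and -3.01, -2.34, -3.24 and -2.32 in SS mice 1, 2, 3 and 01b. On slide 2 it had -3.39 and -2.81 in SI and -4.40 to -3.63 in SS. The difference in all mice was 0.06 ± 0.35, the only positive estimate among the 78. Its probe may also bind mRNA of the parent gene Rps23, and the sign changed in several alternatives. Rps19bp1 gave -0.34 ± 0.17 in all mice (limma adjusted p = 0.269) and -0.50 ± 0.21 on slide 1 (0.182), which passed without SI mouse 4 (0.0254) and not without SS mouse 3 (0.0932).

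Of the 78 genes, 49 had more than 1 tested probe, and 157 of all 159 tested probes of these genes had a negative estimate in all mice. Probes of one gene lay farthest apart for Rpl6, Rpl17 and Rpl31. For Rpl6, 3 probes well above background on all arrays gave -0.18, -0.20 and -0.16, and the other, well above background on 8 of 14 arrays, gave 0.29 ± 0.44. The 7 probes of Rpl17, a protein at the peptide exit tunnel, ranged from -0.37 to -0.06, and the 4 of Rpl31 from -0.24 to -0.0042. Ribosomal protein genes have many processed pseudogenes, so a probe may bind more than the named transcript.

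Between the slides, the mean of slide 1 was below that of slide 2 for 77 of 78 genes. The median over the genes was -0.46 (slide 1 minus slide 2), against 0.07 over all probes. For 20 genes every array of slide 1 lay below every array of slide 2. Neither this count nor that of the slide means was made over all tested probes. They describe the slides and are not read as a trait of these genes. Rps21, singled out as the lowest, had 0.64 ± 0.40 (SD, n = 8) on slide 1 and 2.21 ± 0.11 (n = 6) on slide 2. Over the same arrays the T cell markers differed by -0.82 and the NK cell markers by -1.32, and 7.25 percentage points more probes were well above background on slide 1. Sex label, scan and sample handling by slide cannot be told apart in these differences.

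The genes with a TOP tract at their listed start had differences that overlapped those of the genes without one. In all mice the median was -0.25 over the 13 genes with a tract (from -0.49 in Rpl28 to -0.12 in Rps27) and -0.23 over the 43 subunit genes with an entry and no tract (from -0.40 to -0.06). On slide 1 the medians were -0.35 and -0.33, and on slide 2 -0.06 and -0.05. No test was made of this split, which rests on the listed start alone. Many genes without a tract there, among them Rplp0, Rpl37a and Rps15, had such a run close by. The split therefore does not part TOP mRNAs from other mRNAs.

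Genes that work beside the ribosomal proteins were taken as lists, which share members. All 8 translation elongation factors had negative estimates in all mice with a median of -0.25, and 0 passed limma's test (3 at an unadjusted p under 0.05). Eef1a1, which delivers aminoacyl-tRNA, was at -0.25 ± 0.17, and Eef2, which drives translocation, at -0.22 ± 0.17. Among 24 other mRNAs with a known TOP start, 22 estimates were negative with a median of -0.25 and 0 passed (1 unadjusted). Of these 24, 16 also stand in another list, among them 5 elongation and 6 initiation factors, so the medians of the lists are not separate observations. They include Tpt1 (-0.26 ± 0.22), the ribosomal scaffold protein Rack1 (-0.26 ± 0.17) and Fau (-0.26 ± 0.16), which codes for a ribosomal protein fused to a ubiquitin-like protein. Of 42 ribosome biogenesis genes, 39 were negative (median -0.27, 0 passed, 3 unadjusted). Of 15 chaperones and sensors of ribosomal proteins, 13 were negative (median -0.25, 0 passed, 1 unadjusted). The 6 tested paralogs that the rule left out had a median of -0.21 and 0 passed or had an unadjusted p under 0.05.

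Of 33 initiation factors, 28 were negative (median -0.29) and 1 rose (3.03%, against 7.40% of all probes called higher). This was Eif1, which governs the choice of start codon. Its levels on slide 1 were 3.50, 4.32, 3.96 and 3.82 in SI mice 6, 7, 4 and 5, and 4.82, 4.40, 4.22 and 4.06 in SS mice 1, 2, 3 and 01b; only SI mouse 7 overlapped SS. The difference was 0.69 ± 0.18 (limma adjusted p = 0.0277). The call was lost with the percentile of all probes (0.175), quantile normalization (0.0789), no filter on dim probes (0.1475) and no slide term (0.109). With the deposited log2 table the difference was 0.35 and the call was lost (0.146). Leaving out several single arrays, SS mouse 1 among them (0.0693), also lost the call.

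Of 21 tested genes of mTORC1 and TOP mRNA control, 1 rose (4.76%, against 7.40% of all probes) and 2 were called lower (9.52%, against 0.571%). The lower calls include Mtor, whose probe passed the filter mainly through SI, so their share is not read as a trait of the list. Max and Mxd1 stand in the list beside Myc, and no statement on mTORC1 follows from them. Max, the dimer partner of MYC and of the MXD repressors, rose by 1.21 ± 0.23 (limma adjusted p = 0.00536), with SS above SI on every array of slide 1 (2.83 to 3.72 against 1.05 to 2.64) and of slide 2 (2.57 to 2.80 against 1.23 to 1.51). Mxd1, a repressor that also pairs with MAX, fell by 0.91 on the log2 scale (SE 0.21, limma adjusted p = 0.0137). This call was lost with the percentile of all probes (0.0571), the deposited log2 table (0.0633) and no filter on dim probes (0.0640). It was also lost with the mean over the probes of the gene, where the difference was -0.68 (0.0701). Without SI mouse 27 the difference of Mxd1 was -0.74. The other gene called lower, Mtor, the kinase itself, is no firm call. Its probe was well above background on 3 of 4 SI and 1 of 4 SS arrays of slide 1 and on 1 of 2 and 1 of 4 of slide 2, so it reached the 6 arrays needed for the test mainly through SI, and its size of difference is not given. The call was lost without several single arrays (adjusted p up to 0.0905) and with normexp background correction (0.867). Larp1, which binds TOP mRNAs, was at -0.34 ± 0.16 (0.248), and Myc at -0.11 ± 0.36 (0.886). Beside these, 18 of 19 tested platelet markers passed higher in SS in the same comparison, with a median of 1.57; the part of platelet RNA in the calls of Max, Mxd1, Mtor and Eif1 was not tested.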

How the data were processed

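Each mouse gave 1 array, with SS mouse 01b counted as separate from mouse 1, so p-values measure the spread between single mice. Group and mouse number were taken from the labels. The deposited files hold processed, median and background intensity per spot, background-subtracted and detrended by the scanner software per the file headers. The software flags (other columns) come with them. The authors also deposited a log2 table, and how it was normalized is not stated. The submitters' processing notes name Agilent Feature Extraction 9.1. No spot was saturated. Symbols came from RefSeq through the probe accession (26425 of 31063 matched).

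Spots were put on the log2 scale and averaged per probe. Spots that the software flagged as outliers were left out, unless all spots of the probe were flagged. The array's 75th percentile over probes well above background on all 14 arrays was then subtracted. A probe was tested if it passed the background flag on 6 or more arrays (24013 probes), with limma 3.58.1 in R 4.3.3, files being read by data.table, version 1.17.8. The comparisons were SS against SI with slide as a term, within each slide, and as an interaction. P-values are two-sided and Benjamini-Hochberg adjusted over all tested probes at 0.05. The code was tested on simulated data. The members and lists were chosen with earlier results of these data known. Named genes are the 4 with the lowest p in each comparison, the 3 probes with the highest and the 3 with the lowest mean level, the P-stalk genes, Rps6, Rpsa, Rps27a, the genes whose probes lie farthest apart, and list genes past the threshold or fixed by name, of which 1 is not reported here. Alternatives were other scalings, background corrections, filters and model settings, and leaving out each array.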

Additional observations from a re-analysis of the deposited data

Results flagged for a closer look

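Within groups of 4 arrays, the gap between the highest or lowest array and its neighbour, divided by the range of the group, passed Dixon's critical value in 16 of 66 cases. Chance alone flags about 1 in 20 groups, and the genes share arrays, so these are not 16 separate events. In the SS arrays of slide 1 the far array was mouse 3 and the highest each time: the ratio was 0.98 for Rpl10, 0.896 for Rpl31, 0.834 for Rpl37a, 0.893 for Rpl6, 0.936 for Rplp1, 0.932 for Rps15, 0.891 for Rps19, 0.851 for Rps19bp1, 0.928 for Rps27a and 0.891 for Rps6. It was 0.962 for the mean centred level of the 78 genes and 0.867 for their share of the summed signal. In the SI arrays of slide 1, mouse 4 was the highest for Rpl41 with a ratio of 0.928 (7.45 against 6.06). In the SS arrays of slide 2 the far array was mouse 22, highest for Rpl17 (0.855) and Rpl28 (0.851) and lowest for Rplp2 (0.867).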

How the results depend on the processing

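The counts of ribosomal protein genes called in the 4 comparisons stayed at 0 in all alternatives run, with 2 exceptions. It was 3 in all mice with array brightness as a covariate, which was added after the data were seen. On slide 1 it ranged from 0 to 12 when single arrays were left out, with 12 without SI mouse 4. The median over the genes moved to 0.64 for the difference between slides and to 0.10 on slide 2 with the 75th percentile of all non-control probes. With array brightness as a covariate it was -0.19 on slide 1, -0.22 on slide 2 and 0.01 for the difference between slides. When single arrays were left out, it ranged from -0.31 to -0.15 in all mice, from -0.50 to -0.21 on slide 1, from -0.13 to -0.0035 on slide 2 and from 0.18 to 0.48 for the difference between slides. Without the slide term, Rps14 was at 0.0393, Rps27 at 0.0172 and Rps23rg1 at -0.0409 in all mice; Rps23rg1 was at -0.0071 with brightness as a covariate. Leaving out single arrays took Rpl41 from -0.24 to 0.0364 and Rps23rg1 from -0.17 to 0.30. The number of all probes called in all mice also moved, from 1915 to 4414 with brightness as a covariate and to 3858 without SI mouse 4. The causes were not tested. No paired analysis was possible because the groups compared share no mouse number. The number of arrays limits the precision, and all 78 probes were well above background on every array.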
